A study of Mus musculus with 6 samples.

Results

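The MHC class I antigen processing genes considered here are Tap1, Tap2, Tapbp, B2m, Psmb8, Psmb9, Psmb10, Psme1, Psme2 and Nlrc5. These 10 genes act in making peptides and placing them on MHC class I molecules or, for Nlrc5, regulate class I genes. They were compared between cytotoxic T lymphocytes (CTL) made to express KLF2, a zinc finger transcription factor of quiescent T cells, and CTL that carried a control vector. A gene was measured by the probe sets that the array annotation assigns to it and to no other gene, which left 9 of the 10 genes with 15 probe sets, among 18193 genes and 45037 probe sets in all. The only probe set of Psme2 is shared with the related gene Psme2b, and its values are given apart from the counts. The GFP-KLF2 group held 3 arrays of CTL transduced with a retrovirus that encodes KLF2 joined to GFP, and the evGFP group held 3 arrays of CTL transduced with the empty GFP vector. All cells came from splenocytes of C57BL/6 mice, 8 to 12 weeks old, that carry the P14 LCMV TCR transgene, a T cell receptor for the viral peptide gp33-41. The splenocytes were given this peptide for 48 hours, transduced at 18 hours, washed and grown with IL-2 for another 48 hours. GFP-positive cells were then sorted at day 4, so every library is of transduced cells cultured in vitro, and untransduced cells were not analysed here. The labels call the 3 arrays of each group biological replicates but do not say that they came from separate mice, so p-values measure the spread between these arrays.

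Values are RMA intensities of Affymetrix mouse 3′ expression arrays, given on the log2 scale, where 1 unit is a 2-fold difference, as mean ± SD over 3 arrays per group. A gene is represented by its brightest probe set, and it rose or fell when limma gave an adjusted p under 0.046 over all 45037 probe sets. Arrays of one group correlated at 0.993 to 0.996 across probe sets, and arrays of different groups at 0.982 to 0.990. Arrays with the same replicate number deviated alike from their group means, so same-numbered arrays were also compared as pairs, and a fit that blocks on this number is given where it changes the call of a gene or a count. The Klf2 probe set reads 3′ sequence that the construct lacks, and so checks no label (log2 fold change -0.64, limma adjusted p = 0.552).

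MHC class I molecules display peptides of the cell's own cytosolic proteins to CD8 T cells. The proteasome cuts the peptides, and interferons exchange its 3 catalytic subunits for Psmb8, Psmb9 and Psmb10, which form the immunoproteasome, and raise its PA28 activator cap, made of Psme1 and Psme2. The TAP transporter, a pair of Tap1 and Tap2, carries peptides into the endoplasmic reticulum, where tapasin (Tapbp) bridges it to a heavy chain that is bound to beta-2-microglobulin (B2m). Nlrc5 is a transactivator of MHC class I genes in lymphocytes.

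Of the 9 genes measured, 1 rose in GFP-KLF2 CTL, against 6.22% of all genes, and 0 fell, against 8.35% of all genes. At an unadjusted p under 0.05, 0 of the 9 were lower as well. The gene that rose was Tapbp. All 9 log2 fold changes lay above 0, at 0.04 to 0.62 with a median of 0.24, while the median over all 18193 genes was -0.01 and 48.4% of them lay above 0. The same 9 signs were found under each scaling tried and without any one array. An unadjusted p under 0.05 was found for 3 genes, Tapbp, Psmb10 and Tap1, while 12.0% of all genes were higher in GFP-KLF2 CTL at this level. With the replicate number as a block 2 of the 9 rose, Tapbp and Psmb10, against 8.58% of all genes. In 2 of the 9, again Tapbp and Psmb10, all GFP-KLF2 arrays lay above all evGFP arrays, which held for 14.3% of all genes. Fewer responding cells and a smaller response per cell cannot be told apart in these bulk samples.

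**Figure D1:**
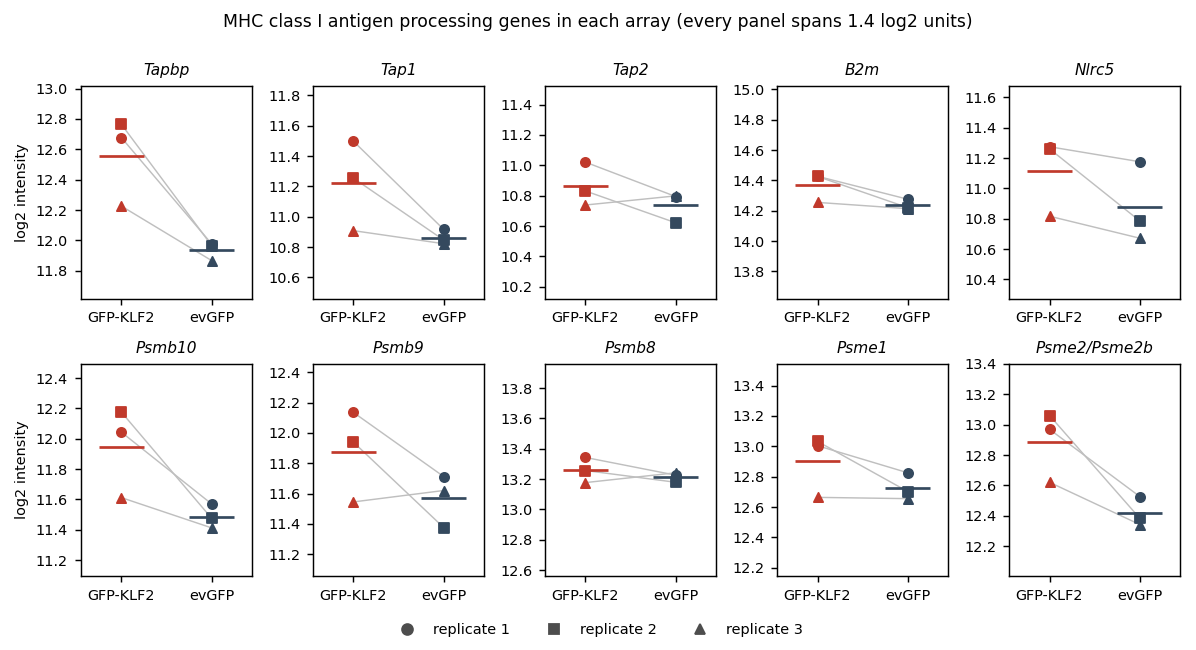
Log2 intensity (y axis) of the brightest probe set of each gene in the 3 GFP-KLF2 and 3 evGFP arrays; symbols mark the replicate number, grey lines join arrays of the same number, horizontal bars are group means, and every panel spans the same range. GFP-KLF2 replicate 3 was the lowest array of its group for all 9 genes measured.

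The 9 genes did not differ equally in the 3 pairs of arrays. In pair 1 and in pair 2 the GFP-KLF2 array was the higher one for 9 of 9 genes, with median differences of 0.23 and 0.41. In pair 3 it was the higher one for 6 of 9, with a median difference of 0.04. The mean log2 intensity over the 9 genes was 12.38, 12.33 and 11.99 in GFP-KLF2 replicates 1, 2 and 3, against 12.05, 11.91 and 11.92 in evGFP replicates 1, 2 and 3. GFP-KLF2 replicate 3 therefore lay below evGFP replicate 1 in this mean. Without it 3 of the 9 genes rose (Tapbp, Psmb10 and Tap1), against 5.44% of all genes, and the median was 0.39, and without any other single array 0 rose, with medians of 0.16 to 0.37.

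Tapbp encodes tapasin, which holds an empty MHC class I heavy chain next to the TAP transporter and edits the peptides it binds. It lies at chr17:33919478-33929290 on the forward strand (GRCm38.p6). Tapbp was at 12.68, 12.76 and 12.23 in GFP-KLF2 replicates 1, 2 and 3, and at 11.98, 11.97 and 11.87 in evGFP replicates 1, 2 and 3. The 3 GFP-KLF2 values were all above the 3 evGFP values, and GFP-KLF2 replicate 3 was the one nearest to them. The mean was 12.56 ± 0.29 in GFP-KLF2 and 11.94 ± 0.06 in evGFP CTL, a 1.54-fold rise (log2 fold change 0.62, standard error 0.14, 95% confidence interval 0.29 to 0.95, limma adjusted p = 0.0315). A change of this size or larger was measured for 4.92% of all genes. Tapbp passed without GFP-KLF2 replicate 3 (0.78, limma adjusted p = 0.00547) but not without any one of the other 5 arrays (0.51 to 0.64, limma adjusted p = 0.0804 to 0.104). A second, dimmer Tapbp probe set was at 9.34 ± 0.30 in GFP-KLF2, against 8.87 ± 0.03 in evGFP CTL, and these groups did not overlap either. The difference was 0.48 and passed only with the replicate block (limma adjusted p = 0.0778, and 0.0436 with the block). Of the 15 probe sets of the 9 genes, 1 rose, against 4.76% of all probe sets without the block. With the block 3 rose, both of Tapbp and that of Psmb10, while 8.58% of all genes rose with the block. A log2 fold change above 0 was found for 13 of the 15, against 48.4% of all genes. The share of all probe sets was not computed for either count, and several of the 15 probe sets read the same gene.

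Tap1 and Tap2, the 2 chains of the peptide transporter, lie with Psmb9 and Psmb8 in one gene cluster of 34.3 kb on chromosome 17 that holds no other gene of the RefSeq table. Psmb9 (chr17:34182030-34187330, reverse strand) and Tap1 (chr17:34187556-34197225, forward strand) point away from each other, with starts 226 bases apart. Psmb8 (chr17:34198195-34201454, forward strand) starts 970 bases after Tap1 ends, and Tap2 spans chr17:34204479-34216321. The RefSeq promoter windows, from 250 bases before to 50 bases after the annotated start, of Tap1 and Psmb9 share 275 of their 300 bases. Promoter windows were found for 8 of the 10 genes; Tap2 and Nlrc5 had none. The windows of Tapbp, the gene that rose, of Tap1, which also covers the Psmb9 start, and of B2m and Psmb8, which hold interferon-type matches, are shown 5′ to 3′ on the strand of the gene, with matches to the motifs searched in capitals.
Tapbp: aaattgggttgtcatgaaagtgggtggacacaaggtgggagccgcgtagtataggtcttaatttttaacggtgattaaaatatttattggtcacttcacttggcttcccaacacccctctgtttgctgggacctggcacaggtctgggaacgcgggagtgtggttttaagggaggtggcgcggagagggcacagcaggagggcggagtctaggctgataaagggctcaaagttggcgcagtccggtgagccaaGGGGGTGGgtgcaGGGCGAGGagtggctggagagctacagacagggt
Tap1: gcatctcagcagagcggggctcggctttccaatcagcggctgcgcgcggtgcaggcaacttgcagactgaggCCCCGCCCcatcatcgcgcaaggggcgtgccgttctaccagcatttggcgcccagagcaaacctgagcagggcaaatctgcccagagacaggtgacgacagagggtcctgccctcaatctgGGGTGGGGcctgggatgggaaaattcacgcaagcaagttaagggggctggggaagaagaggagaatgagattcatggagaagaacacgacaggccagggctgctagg
B2m: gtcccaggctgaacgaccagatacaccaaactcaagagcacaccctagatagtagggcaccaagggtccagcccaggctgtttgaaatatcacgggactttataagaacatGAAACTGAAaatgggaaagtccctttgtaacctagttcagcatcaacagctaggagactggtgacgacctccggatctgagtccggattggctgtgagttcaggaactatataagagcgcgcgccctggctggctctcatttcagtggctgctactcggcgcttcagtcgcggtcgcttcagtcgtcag
Psmb8: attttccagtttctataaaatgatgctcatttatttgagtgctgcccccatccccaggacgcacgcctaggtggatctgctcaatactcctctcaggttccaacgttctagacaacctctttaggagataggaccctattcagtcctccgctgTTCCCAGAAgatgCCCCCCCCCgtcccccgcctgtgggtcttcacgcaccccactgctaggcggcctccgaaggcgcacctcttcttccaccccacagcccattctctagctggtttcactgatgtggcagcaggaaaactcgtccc

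The motifs were searched on both strands as GAAANNGAA (ISRE-type, the sort of element bound by interferon regulatory factors), TTCNNNGAA (GAS-type, named for the interferon-gamma response), CCNCNCCC (KLF-type) and GGGANTTCC (NF-kB-type). The KLF-type match was found in windows of 6 genes (Tap1, Psmb9, Tapbp, Psmb8, Psme1 and Psme2), as it was in 49.5% of all 32851 promoter windows. The ISRE-type match was found in B2m and in Psme1, whose window is not shown, and in 8.56% of all windows. The GAS-type match was found in Psmb8 and in 8.30% of all windows, and the NF-kB-type match in 0 of the 8 genes and in 1.68% of all windows. The Tapbp window held 2 KLF-type matches, both after the annotated start, and the Tap1 window held 2 before it, which the Psmb9 window shares. The Psmb10 window held no match. A match is a description of the letters and no evidence of binding. The lack of a match to these fixed patterns does not show that a window holds no site of that type.

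Tap1 was at 11.50, 11.25 and 10.91 in GFP-KLF2 and at 10.92, 10.85 and 10.82 in evGFP CTL. GFP-KLF2 replicates 1 and 2 were above all evGFP arrays and replicate 3 was among them, just under evGFP replicate 1. The difference was 0.36 with a standard error of 0.14, and it did not pass (95% confidence interval 0.02 to 0.69, limma adjusted p = 0.171). Without GFP-KLF2 replicate 3 it was 0.51 and passed (limma adjusted p = 0.0313). The 3 other Tap1 probe sets had differences of 0.14, 0.09 and -0.15, and 2 of them had means of 3.27 and 3.42, below the lower quartile of the arrays (4.18 to 4.25). Tap2 was at 11.02, 10.83 and 10.74 in GFP-KLF2 and at 10.79, 10.62 and 10.80 in evGFP CTL, and the groups overlapped. Its difference was 0.13 (standard error 0.10, 95% confidence interval -0.11 to 0.36, limma adjusted p = 0.527).

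Of 8 other factors measured that load or trim peptides in the endoplasmic reticulum, limma found 0 that rose (0 also at an unadjusted p under 0.05) and 1 that fell, Canx, the chaperone calnexin (-0.30, standard error 0.07, limma adjusted p = 0.0405), and the median was -0.13. Without each array in turn Canx lay at -0.33 to -0.28 and did not pass (limma adjusted p = 0.0565 to 0.135). Calreticulin (Calr) and the disulphide isomerase Pdia3, partners of tapasin in the peptide-loading complex, had differences of -0.14 and -0.12 and did not pass. Tapbpl, a relative of tapasin that also edits peptides, was the one factor with a positive value (with cyclic loess scaling 3 of the 8 were positive, the median was -0.05 and 0 fell), at 10.60, 10.71 and 9.75 in GFP-KLF2 and 10.07, 9.87 and 9.59 in evGFP CTL. Its difference of 0.51 passed with the replicate block (limma adjusted p = 0.270, and 0.0454 with the block).

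**Figure D2:**
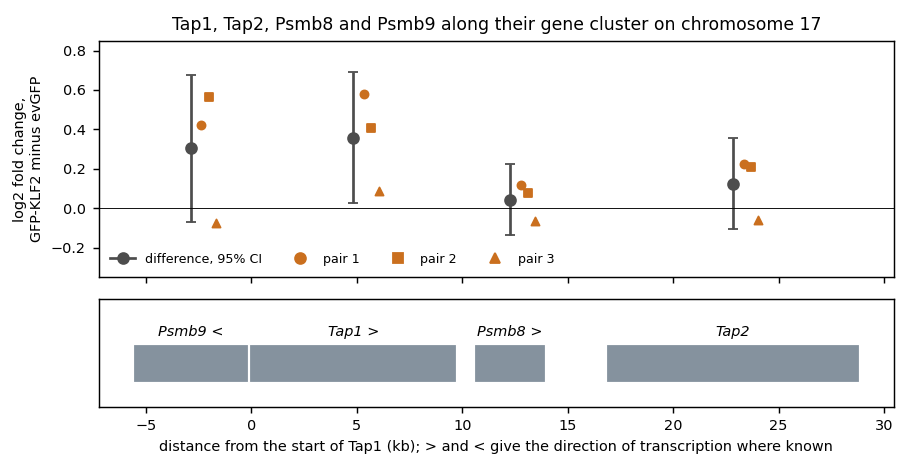
Log2 fold change of Psmb9, Tap1, Psmb8 and Tap2 (upper panel, y axis; grey points with 95% confidence intervals, orange symbols for the 3 pairs of same-numbered arrays) placed along their gene cluster by distance from the start of Tap1 in kb (x axis, gene extents in the lower panel). The confidence interval of Tap1 starts at 0.02, those of the other 3 genes include 0, and pair 3 gave the lowest value for each gene.

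B2m, the light chain of every MHC class I molecule, lies at chr2:122147687-122153082. It was at 14.43, 14.43 and 14.25 in GFP-KLF2 and at 14.28, 14.22 and 14.21 in evGFP CTL. GFP-KLF2 replicates 1 and 2 were above all evGFP arrays and replicate 3 lay below evGFP replicate 1. The difference was 0.13 (standard error 0.08, 95% confidence interval -0.05 to 0.32, limma adjusted p = 0.382), and a second probe set gave 0.06 (limma adjusted p = 0.695). These values lie near the array maxima of 14.97 to 15.04, where the signal can saturate and a difference can be understated.

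The heavy chains that pair with B2m were mixed. The classical heavy chains H2-K1 and H2-D1, which present peptides to CD8 T cells, had differences of 0.08 (limma adjusted p = 0.635) and 0.20 (limma adjusted p = 0.138). Both were read by probe sets of the kind that one alternative removes as cross-hybridising. Other heavy chain copies may therefore add to these values, although the annotation names 1 gene for each. Of 10 heavy chain and class I-like genes with a probe set of their own, 2 rose and 1 fell, with a median of 0.20. This count was 3 rises with the mean of all probe sets, without cross-hybridising probe sets, and with cyclic loess scaling. Among the 7 of these genes with a mean log2 of at least 6 the median was 0.08. H2-Q10, known in mice as a secreted heavy chain made mainly in liver, was at 9.12, 7.72 and 8.51 in GFP-KLF2 and at 6.01, 5.80 and 7.26 in evGFP CTL. The groups did not overlap, and the 4.27-fold difference passed (2.09, standard error 0.45, limma adjusted p = 0.0258). H2-T24 was at 6.60, 6.44 and 5.58 in GFP-KLF2 and at 5.21, 5.02 and 5.03 in evGFP CTL (1.12, standard error 0.25, limma adjusted p = 0.0276). Its mean over all arrays was 5.65, under the limit of 6 that marks dim probe sets. Cd1d1, which presents lipids to NKT cells, fell by 0.79 on the log2 scale (limma adjusted p = 0.0350), but with cyclic loess scaling its value of -0.73 did not pass (limma adjusted p = 0.0489). Without single arrays H2-Q10 ranged from 1.76 to 2.55 (limma adjusted p = 0.0108 to 0.0905), H2-T24 from 0.92 to 1.43 (0.00142 to 0.0943) and Cd1d1 from -0.96 to -0.66 (0.0316 to 0.111). The heavy chain genes that rose then numbered 0 without GFP-KLF2 replicate 1 or evGFP replicate 1 or 2 and 1 without any other array, and Cd1d1 passed only without GFP-KLF2 replicate 1 or evGFP replicate 2.

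Many mouse heavy chain genes are near-identical copies, and 12 probe sets are annotated to several of them. These were counted after their values had been seen. All 12 had a log2 fold change above 0 (0.09 to 1.24, median 0.34), as did 48.4% of all genes. Of the 12, 5 rose, against 4.76% of all probe sets, and 0 fell. Several of them read the same copies, so they are not 12 separate observations. A probe set shared by H2-T23 and the pseudogene H2-T-ps had 12.90, 12.80 and 12.39 in GFP-KLF2, against 11.51, 11.34 and 11.53 in evGFP CTL. The 3 GFP-KLF2 arrays were each above all evGFP arrays, with a 2.36-fold difference (1.24, standard error 0.14, limma adjusted p = 0.00285). H2-T23 encodes Qa-1, a non-classical class I molecule that the NK receptor CD94/NKG2A recognises. A second probe set with the same annotation gave 0.11 (limma adjusted p = 0.842), so the 2 probe sets disagree. The probe set of H2-Q9 and H2-Q7, the genes of the Qa-2 molecule, had 13.17, 13.02 and 13.05 in GFP-KLF2, against 12.06, 12.15 and 12.50 in evGFP CTL (0.84, limma adjusted p = 0.00710). The 2 probe sets of H2-Q6 and H2-Q8, one of which also reads H2-Q4, gave 0.73 and 0.84 (limma adjusted p = 0.0267 and 0.0211). A probe set of H2-T9, H2-T22 and H2-T10 gave 0.58 (limma adjusted p = 0.0439, and 0.0517 with arrays centred on their medians), while a second one of these genes gave 0.42 and did not pass (limma adjusted p = 0.0957). The one shared by H2-K1 and H2-D1 gave 0.13 (limma adjusted p = 0.496). The H2-T23 and the H2-Q9 and H2-Q7 probe sets passed without each array in turn, and between 2 and 5 of the 12 probe sets rose (2 without evGFP replicate 1 or 2, 5 without evGFP replicate 3, and 3 without any one GFP-KLF2 array). Which copy carries the signal cannot be told apart.

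**Figure D3:**
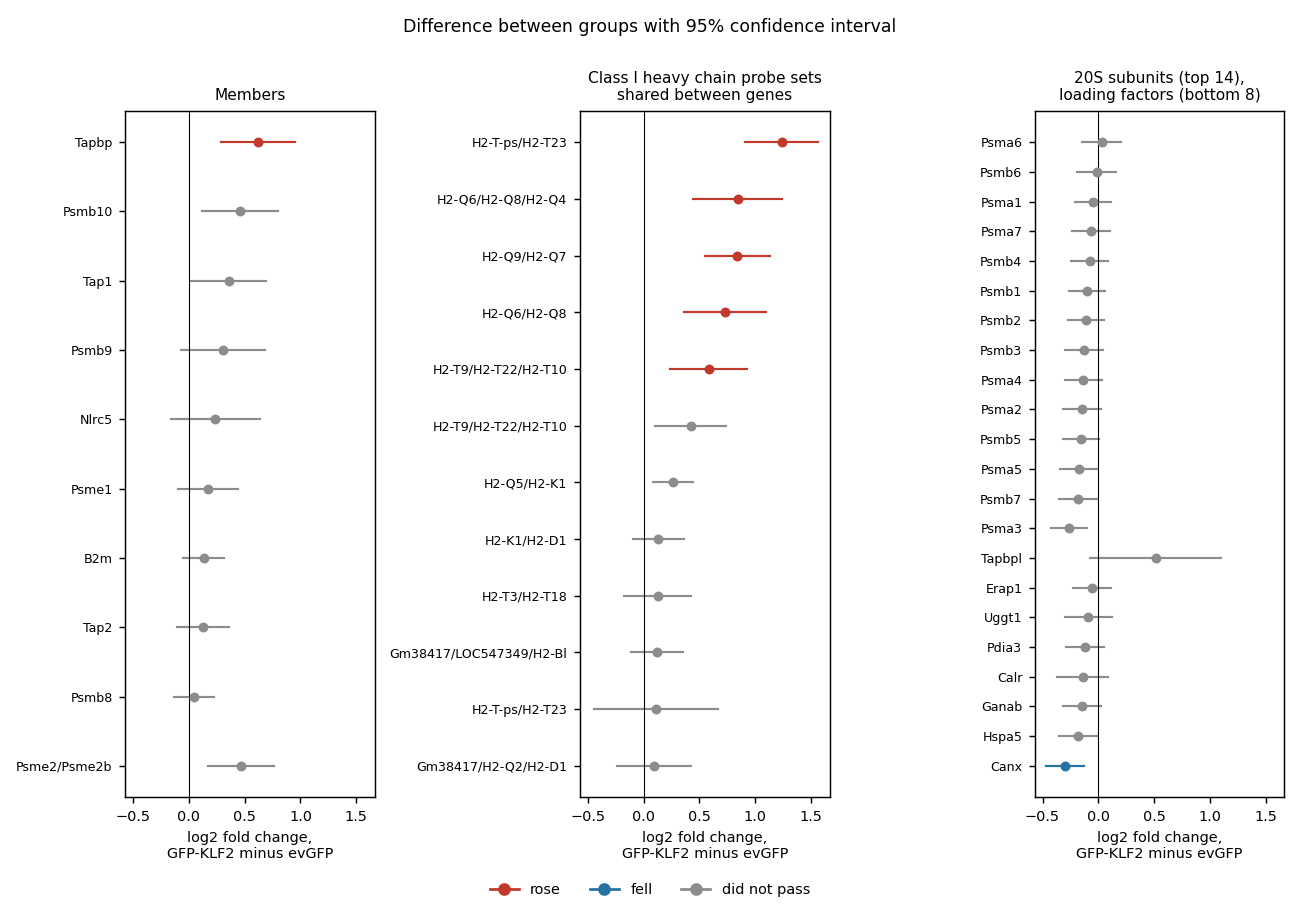
Log2 fold change, GFP-KLF2 minus evGFP (x axis), with 95% confidence intervals for the 9 genes measured and the shared Psme2 probe set (left), the 12 heavy chain probe sets shared between genes (middle), and the 14 constitutive 20S subunits and 8 loading factors (right). Among the genes at left Tapbp rose (0.62), 5 heavy chain probe sets rose (0.58 to 1.24), and 13 of the 14 20S subunits lay below 0.

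Psmb10, the immunoproteasome subunit with trypsin-like activity, lies at chr8:105935728-105938392. It was at 12.04, 12.18 and 11.61 in GFP-KLF2 and at 11.57, 11.48 and 11.41 in evGFP CTL. All GFP-KLF2 arrays were above all evGFP arrays, although GFP-KLF2 replicate 3 exceeded evGFP replicate 1 only narrowly. The difference was 1.37-fold (0.46, standard error 0.14, 95% confidence interval 0.12 to 0.80). It missed the threshold (limma adjusted p = 0.0908) and passed with the replicate block (limma adjusted p = 0.0360). It also passed without GFP-KLF2 replicate 3 (0.62, limma adjusted p = 0.0138).

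Psmb9, also known as LMP2, was at 12.13, 11.94 and 11.55 in GFP-KLF2 and at 11.71, 11.38 and 11.62 in evGFP CTL. GFP-KLF2 replicate 3 lay below 2 of the 3 evGFP arrays, and the difference of 0.30 did not pass (standard error 0.16, limma adjusted p = 0.309). Psmb8, also known as LMP7, was at 13.34, 13.26 and 13.18 in GFP-KLF2 and at 13.23, 13.18 and 13.24 in evGFP CTL, with overlapping groups. Its difference was 0.04 (standard error 0.08, 95% confidence interval -0.14 to 0.22, limma adjusted p = 0.806), and its second probe set gave -0.04. The 3 immunoproteasome subunits thus had differences of 0.46, 0.30 and 0.04.

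Each immunoproteasome subunit takes the place of 1 constitutive subunit, Psmb10 that of Psmb7, Psmb9 that of Psmb6 and Psmb8 that of Psmb5. The 3 constitutive subunits had differences of -0.19, -0.02 and -0.16 and did not pass. Per array, the log2 value of Psmb10 minus that of Psmb7 was 1.84, 2.06 and 1.51 in GFP-KLF2, against 1.27, 1.11 and 1.11 in evGFP CTL. The 3 GFP-KLF2 values were above the 3 evGFP values, and the change of this difference was 0.64. For Psmb8 minus Psmb5 the values were 1.29, 1.12 and 1.07 in GFP-KLF2, against 0.95, 0.93 and 1.00 in evGFP CTL, a change of 0.20 without overlap. For Psmb9 minus Psmb6 they were 0.02, -0.20 and -0.46 in GFP-KLF2, against -0.43, -0.74 and -0.43 in evGFP CTL, and overlapped, with a change of 0.32. By a 2-sided exact permutation test of 3 against 3 arrays the p-values were 0.1, 0.1 and 0.3 for Psmb10, Psmb8 and Psmb9, and 0.15, 0.15 and 0.3 after adjustment over the 3 comparisons. The smallest p this design allows is 0.1, so none could pass.

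The rest of the proteasome lay mostly below 0. So did 6023 of the 10511 genes of mean log2 of at least 6, whose median was -0.05. Of the 14 constitutive 20S subunits limma found 0 that rose and 0 that fell (0 and 3 at an unadjusted p under 0.05), 13 had a log2 fold change below 0, and the median was -0.12. With cyclic loess scaling 10 of 14 lay below 0 and the median was -0.04. Of 17 subunits of the 19S regulatory particle, which unfolds proteins for the core, 0 rose and 3 fell, namely Psmd6 (-0.38), Psmd1 (-0.32) and Psmd3 (-0.29), with a median of -0.14. Without single arrays 0 to 2 of them fell (1 without GFP-KLF2 replicate 3, 2 without evGFP replicate 3 and 0 without any other), and with cyclic loess 1 fell, 7 of the 17 lay above 0 and the median was -0.05. With the replicate block 4 fell, with Psmd7 in addition (-0.44, limma adjusted p = 0.0536, and 0.0260 with the block). Among 8 other activators, inhibitors and assembly chaperones, Psmg1, an assembly chaperone, fell by 0.64 on the log2 scale (limma adjusted p = 0.0103), and Psme3, the subunit of the nuclear PA28 cap, by 0.33 (limma adjusted p = 0.0284). Psmg1 passed without each array in turn, while Psme3 passed only without GFP-KLF2 replicate 3 and not with cyclic loess (limma adjusted p = 0.0933). With the replicate block the assembly chaperone Psmg3 fell as well (-0.32, limma adjusted p = 0.0475, and 0.0449 with the block).

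Psme1 and Psme2 form the cytosolic PA28 cap, which opens the proteasome, and lie within 5913 bases of each other on chromosome 14 (chr14:55578494-55581527 and chr14:55587440-55591101). Psme1 was at 13.00, 13.03 and 12.66 in GFP-KLF2 and at 12.83, 12.70 and 12.66 in evGFP CTL. GFP-KLF2 replicates 1 and 2 were above all evGFP arrays and replicate 3 was not. The difference was 0.17 (standard error 0.12, limma adjusted p = 0.437). The probe set that Psme2 shares with Psme2b was at 12.97, 13.06 and 12.62 in GFP-KLF2 and at 12.53, 12.38 and 12.34 in evGFP CTL, without overlap. Its difference of 0.47 (standard error 0.13) just missed the threshold (limma adjusted p = 0.0540) and passed with the replicate block (limma adjusted p = 0.0235) and without GFP-KLF2 replicate 3 (0.60, limma adjusted p = 0.0162).

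Nlrc5, the class I transactivator, lies at chr8:94434335-94527272. It was at 11.27, 11.26 and 10.82 in GFP-KLF2 and at 11.18, 10.79 and 10.67 in evGFP CTL. The groups overlapped, since evGFP replicate 1 lay above GFP-KLF2 replicate 3, and the difference of 0.24 did not pass (standard error 0.17, limma adjusted p = 0.469). Of 12 other regulators measured that are known to act on class I promoters, limma found 3 that rose and 0 that fell (3 lower at an unadjusted p under 0.05), with a median of 0.12. They were Irf8 (0.72, limma adjusted p = 0.0251) and Irf2 (0.49, limma adjusted p = 0.0395), interferon regulatory factors, and Rela (0.35, limma adjusted p = 0.0279), a subunit of NF-kB. With the replicate block 5 rose, with Irf1 and Rfxank in addition, and Nfya fell. Without single arrays 2 rose when GFP-KLF2 replicate 3 or evGFP replicate 3 was left out and 0 when any other was.

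Irf1, the interferon-induced activator of Tap1, Psmb9 and other class I genes, was at 11.52, 11.29 and 10.60 in GFP-KLF2 and at 10.51, 10.13 and 10.04 in evGFP CTL. The groups did not overlap, and the 1.88-fold difference (0.91, standard error 0.24) missed the threshold narrowly (limma adjusted p = 0.0480, against 0.00628 with the replicate block and 0.0390 with cyclic loess). Of 6 genes of interferon-gamma signalling measured, Irf1 among them, 3 rose and 1 fell, with a median of 0.72. The kinases Jak2 (0.99, limma adjusted p = 0.00474) and Jak1 (0.73, limma adjusted p = 0.0134) and the receptor chain Ifngr1 (0.72, limma adjusted p = 0.0124) rose. The other receptor chain, Ifngr2, fell by 0.29 on the log2 scale (limma adjusted p = 0.0431), but did not pass with the replicate block (limma adjusted p = 0.0522) or with cyclic loess (limma adjusted p = 0.109). Without single arrays 1 (without evGFP replicate 2) to 4 (without GFP-KLF2 replicate 3) of these genes rose, Jak2 each time, and Ifngr2 did not pass.

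Of 10 interferon-inducible GTPases measured, 3 rose (Gbp8, Gbp3 and Irgm2, by 0.94, 0.81 and 0.78), 0 fell, and the median was 0.88. Their mean log2 intensity was 11.60, 11.75 and 10.42 in GFP-KLF2, against 10.54, 9.84 and 9.62 in evGFP replicates 1, 2 and 3. GFP-KLF2 replicate 3 was the lowest of its group here too and lay below evGFP replicate 1. Of 27 type I interferon-stimulated genes 9 rose and 0 fell, with a median of 1.33, and the mean was 9.18, 8.97 and 7.54 in GFP-KLF2, against 7.22, 6.99 and 6.95 in evGFP CTL. Among them were Ifit1 (3.32), Rsad2 (2.63), Zbp1 (2.60) and Ifit3 (2.49), genes of antiviral defence, of which Zbp1 passed without each array in turn. With the replicate block 9 of the 10 GTPases and 19 of the 27 interferon-stimulated genes rose. Without GFP-KLF2 replicate 3, 8 and 23 rose, and without any other single array 0 to 2 and 2 to 4 rose. The part of this interferon-inducible expression in the values of the class I genes was not tested.

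**Figure D4:**
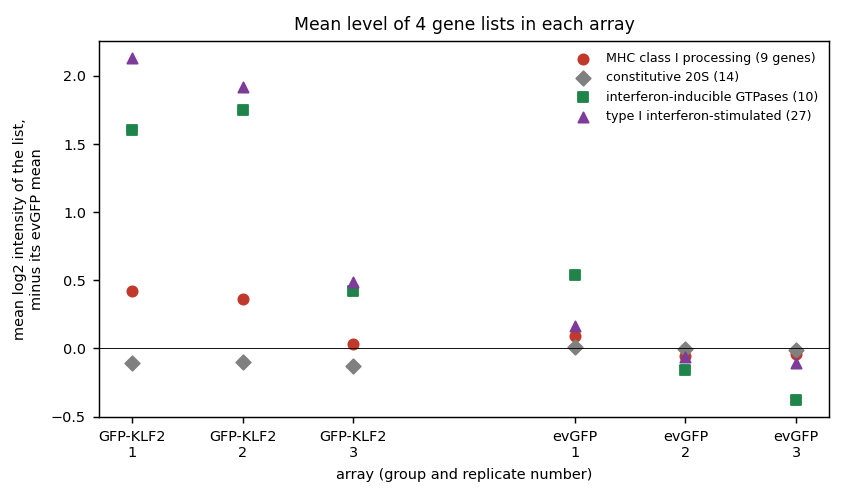
Mean log2 intensity of 4 gene lists in each array, minus the mean of that list over the evGFP arrays (y axis), by group and replicate number (x axis); each point is 1 array. The class I processing genes and both interferon-inducible lists were highest in GFP-KLF2 replicates 1 and 2, while the constitutive 20S subunits lay slightly below the evGFP mean in all GFP-KLF2 arrays.

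Markers of other cells were checked, because antigen-presenting cells of the spleen express class I processing genes too. The CD8 T cell markers had mean levels of 12.20 to 12.26 in GFP-KLF2 and 12.15 to 12.22 in evGFP CTL, and 1 of 9 rose (Cd8b1, 0.45), or 2 with the replicate block, with Cd247 in addition (0.39, limma adjusted p = 0.0481, and 0.0189 with the block). The MHC class II and antigen-presenting cell genes had means of 6.24 to 6.69 in GFP-KLF2 and 6.46 to 6.83 in evGFP CTL, and limma found 0 of 8 that rose or fell (1 lower at an unadjusted p under 0.05, and 2 lower with the replicate block). The B cell list had means of 5.39 to 5.75 in GFP-KLF2 and 5.20 to 5.48 in evGFP CTL, the myeloid list 5.36 to 5.51 in GFP-KLF2 and 5.24 to 5.37 in evGFP CTL, and 0 of 6 and 0 of 10 genes rose or fell. Averaged over the 6 arrays, single genes lay at 3.41 to 8.24 in the class II list, at 4.48 to 7.20 in the B cell list and at 4.06 to 6.93 in the myeloid list. The array medians were 5.64 to 5.67. With the replicate block 1 myeloid gene rose, Cd68, a lysosomal protein of macrophages (0.43, limma adjusted p = 0.0490, and 0.0252 with the block). The NK cell list had means of 6.09 to 6.70 in GFP-KLF2 and 5.95 to 6.36 in evGFP CTL, with 0 of 4 past the threshold and single genes at 3.35 to 10.93. With the block 1 of them rose, the lectin-like receptor Klre1 (1.01, limma adjusted p = 0.170, and 0.0144 with the block). Of the 4 CD4 T cell genes 1 rose (Zbtb7b, 0.45, limma adjusted p = 0.0429, and 0.0493 with centred medians), while Cd4 did not pass (0.11). GFP-KLF2 replicate 3 was the lowest of its group in the NK and myeloid means and not in the other 4. At an unadjusted p under 0.05, 3 B cell, 1 myeloid and 1 NK cell gene were higher in GFP-KLF2 CTL. The part of other cells in the class I values was not tested.

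The 9 genes were compared with all 6947 other genes of mean log2 intensity of at least 8 by the root mean square difference between the centred values of the 6 arrays. The closest was Daxx, a histone chaperone and interferon-inducible gene, at 0.0244 log2 units from the mean profile of the 9 genes. Daxx was at 9.84, 9.82 and 9.47 in GFP-KLF2 and at 9.50, 9.33 and 9.41 in evGFP CTL (0.29, limma adjusted p = 0.169). Its low GFP-KLF2 replicate 3 follows from this choice by profile and is no separate result. Daxx ends 3888 bases before Tapbp starts on chromosome 17. The next were the SNARE protein gene Stx5a (0.0411), Pnrc2 (0.0420), Ubl7 (0.0457) and Uvssa (0.0501). None of the 5 passed the test, but the choice by profile also held their differences near that of the mean profile.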

How the data were processed

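RNA of 6 sorted CTL samples, 3 GFP-KLF2 and 3 evGFP, was read on Affymetrix 3′ expression arrays for mouse. Each deposited value is an RMA intensity of 1 probe set on 1 array, on a linear scale (5.74 to 33637.8). RMA and limma are named in the submitters' processing notes, with versions not given in the sources used here. RMA scales the arrays to a common distribution, so a shift of all genes would not be seen. Here log2 was taken, 64 control probe sets were removed from 45101, and limma 3.58.1 in R 4.3.3 was fitted with 1 constant per group, 2-sided, with Benjamini-Hochberg adjustment over 45037 probe sets, of which 34945 are annotated to 1 gene, 932 to several and 9160 to none in the array annotation. The fit was run on simulated data with noise drawn independently for each array. Such data hold no shared deviation of same-numbered arrays, so they do not check the fit in its presence. The number of arrays limits the precision. The methods print the threshold as 0.046%; 0.046 was used and 0.00046 became an alternative.

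Samples were grouped by their titles. Same-numbered arrays deviated together from their group means (correlations of 0.325, 0.442 and 0.466, against -0.38 to 0.06 for others). Deviations from a group mean sum to 0, so part of this contrast is built in. On this ground, from these same data, the numbers were taken to pair the arrays, and a replicate block was an alternative. The others were a threshold of 0.05, removal of dim probe sets (mean log2 under 6), averaging a gene's probe sets, removal of cross-hybridising probe sets, centring on medians, cyclic loess, an intensity trend with a robust prior, and leaving out each array.

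The genes, the 15 other gene lists and the motifs were chosen with earlier results of these data known, so no list is independent evidence of its direction, and no list was tested as a whole. Named were all 10 genes, in each list the largest changes that passed, at most 4 genes, Psmb5, Psmb6, Psmb7, Calr, Canx, Pdia3 and Irf1, and the 5 genes of closest profile. Tapbpl, Rfxank, Nfya, H2-K1, H2-D1, Psmd7, Psmg3, the markers Cd247, Cd68, Klre1 and Cd4, and the shared heavy chain probe sets were named after their values were seen. Promoter windows and gene positions are those of RefSeq on GRCm38.p6. Genes whose copies share probe sets are uncertain.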

Additional observations from a re-analysis of the deposited data

How the results depend on the processing

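Of the class I processing genes, 1 rose with a threshold of 0.05, without dim probe sets, with the mean of all probe sets, without cross-hybridising probe sets, with centred medians, with cyclic loess and with the trend and robust prior. With the threshold of 0.00046, 0 of them and 0 of their probe sets rose, as did 0 in the heavy chain, regulator, interferon-gamma, GTPase and interferon-stimulated lists, and 0 fell in the 19S, other proteasome and loading lists. With the replicate block 2 genes and 3 probe sets rose, and 5 regulators, 9 GTPases and 19 interferon-stimulated genes. Without dim probe sets 1 20S subunit, 7 19S subunits and 4 other proteasome genes fell and 5 GTPases rose. With the mean of all probe sets 1 20S and 6 19S subunits fell, and with centred medians 1 20S subunit. With cyclic loess 1 19S subunit, 1 other proteasome gene and 0 loading factors fell, and Psmb6 changed sign to 0.065. With the trend and robust prior 1 20S subunit, 7 19S subunits, 4 other proteasome genes and 2 loading factors fell, and 5 interferon-stimulated genes rose. The causes were not tested.

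Leaving out single arrays, 0 to 3 class I processing genes and 0 to 4 of their probe sets rose, with a median of 0.16 to 0.39, and 0 to 1 heavy chains, 0 to 2 regulators, 1 to 4 interferon-gamma genes, 0 to 8 GTPases and 2 to 23 interferon-stimulated genes; 0 to 2 19S subunits, 1 to 2 other proteasome genes and 0 to 0 loading factors fell. Psmb6 lay between -0.044 and 0.023, above 0 without GFP-KLF2 replicate 3 or evGFP replicate 1 (0.0026). The changes of Psmb8 minus Psmb5, Psmb9 minus Psmb6 and Psmb10 minus Psmb7 kept their sign; with the replicate block their exact p was 0.25, 0.5 and 0.25, where 0.25 is the smallest possible, an alternative added after seeing the data. Over all genes, 42.7% of calls were rises, 40.2% with centred medians and 59.1% with cyclic loess. Saturation may limit B2m, and dim signal limits Tap1's 2 faintest probe sets.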
